A study of Homo sapiens with 3 samples.

Results

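RNA polymerase II (Pol II) is the enzyme that makes the precursors of all messenger RNAs. Its large subunits, RPB1 (gene POLR2A) and RPB2 (POLR2B), form the active site, and RPB1 also carries the C-terminal domain (CTD), a tail of repeats on which the factors for capping, splicing and 3ʹ-end processing assemble. RPB3 and RPB11 (POLR2C, POLR2J) form the heterodimer on which the enzyme is built, RPB4 and RPB7 (POLR2D, POLR2G) form its stalk, RPB9 (POLR2I) acts in transcript fidelity, and RPB5, RPB6 and RPB8 (POLR2E, POLR2F, POLR2H) are also subunits of RNA polymerases I and III. After UV irradiation the elongating enzyme stalls at DNA lesions, and RPB1 is known to be ubiquitinated and degraded. The 10 genes POLR2A to POLR2J were taken by name from a table of 31565 cleavage and polyadenylation sites (pAs) in 9431 genes. 9 of the 10 were listed, with 27 pAs in all, and POLR2E had no entry.

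The pAs were mapped by 3ʹREADS, a method that sequences the 3ʹ ends of poly(A)+ RNA, in nuclear RNA of RKO cells, an established human colon carcinoma cell line. One library was UV-treated with 0.5 h of recovery and another with 2 h of recovery, and the library at 0 h was the baseline; each time point had 1 library, so no difference below has a replicate check. The deposited values are library-scaled read numbers (RPM) and were turned back into whole reads, 433261, 501838 and 438040 at 0, 0.5 and 2 h, where 1 read was worth 2.31, 1.99 and 2.28 RPM. The 9 subunit genes held 687, 850 and 894 of these reads, or 0.159%, 0.169% and 0.204%. Of 5 genes listed as markers of an epithelial cell line, KRT8, KRT18 and EPCAM had reads (30.005, 25.9 and 68.5 RPM summed at 0, 0.5 and 2 h); 1 of 10 markers of differentiated colon (CA2, 0, 0 and 2.28 RPM) and 0 of 8 fibroblast markers were listed. Of 7 leukocyte markers CD68 alone was listed, at 4702, 5159 and 4486 RPM, and its 15 pAs lie 2591 to 4227 bases downstream of the 3ʹ-most-exon pA of EIF4A1 (136, 97.6 and 126 RPM) on the same strand; any part of EIF4A1 transcripts in the CD68 reads was not tested. All intervals are 95% intervals (exact Poisson for a level, Clopper-Pearson for a share, exact conditional for a ratio) and cover counting error only.

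By the unadjusted p, POLR2A was called for more transcripts ending in introns in all 3 windows, which are pairs of the same 3 libraries. Such a call was made for 6.2% (0 to 0.5 h), 15.7% (0.5 to 2 h) and 15.7% (0 to 2 h) of all genes tested. From 0 to 0.5 h the call of POLR2A did not pass adjustment (Fisher's exact test, adjusted p = 0.0642). Of the other 8 listed subunits, POLR2G alone had an intronic pA and could be tested, in 2 of the 3 windows. After UV the reads of POLR2A were fewer at the pA in the 3ʹ-most exon and more at pAs in introns, at 2 h mostly near the 5ʹ end of the gene, while the other 8 listed subunits together had 1, 0 and 0 intronic reads at 0, 0.5 and 2 h. A transcript that ends at such an intronic pA lacks the downstream exons, among them those that encode the CTD. POLR2J and POLR2H, which had the most reads, were higher at 2 h than at 0 h, with ratios of 1.42 and 1.41 that passed the adjusted test but not the minimum fold of a call. POLR2G and POLR2F had no call in expression. POLR2B, POLR2C, POLR2D and POLR2I had between 0 and 15 reads in every library.

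The 8 intronic pAs of POLR2A lie on the plus strand of chromosome 17 (hg19) upstream of its pA in the 3ʹ-most exon at position 7417933. At 0 h none of the 8 had a read. At 0.5 h 2 had reads, 2 reads at 7388482 and 5 at 7392652. At 2 h the other 6 had reads: 16 at 7388676, 5 at 7388616 and 2 each at 7388522, 7389188, 7396910 and 7407644. No intronic pA had reads at both 0.5 and 2 h. The pA of the 3ʹ-most exon had 21, 7 and 1 reads at 0, 0.5 and 2 h, so its use fell as that of the introns rose, and at 2 h a single read was left there.

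The intronic pAs were spread unevenly along the gene. 5 of them lie within 706 bases of one another, 28745 to 29451 bases upstream of the pA in the 3ʹ-most exon, and the other 3 lie 25281, 21023 and 10289 bases upstream of it. The 5 clustered pAs held 0, 2 and 25 reads at 0, 0.5 and 2 h, and the 3 further downstream held 0, 5 and 4. The clustered pAs thus had 86.2% of the intronic reads at 2 h, against 28.6% of 7 reads at 0.5 h. The most used pA alone had 55.2% of the intronic reads at 2 h.

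**Figure D1:**
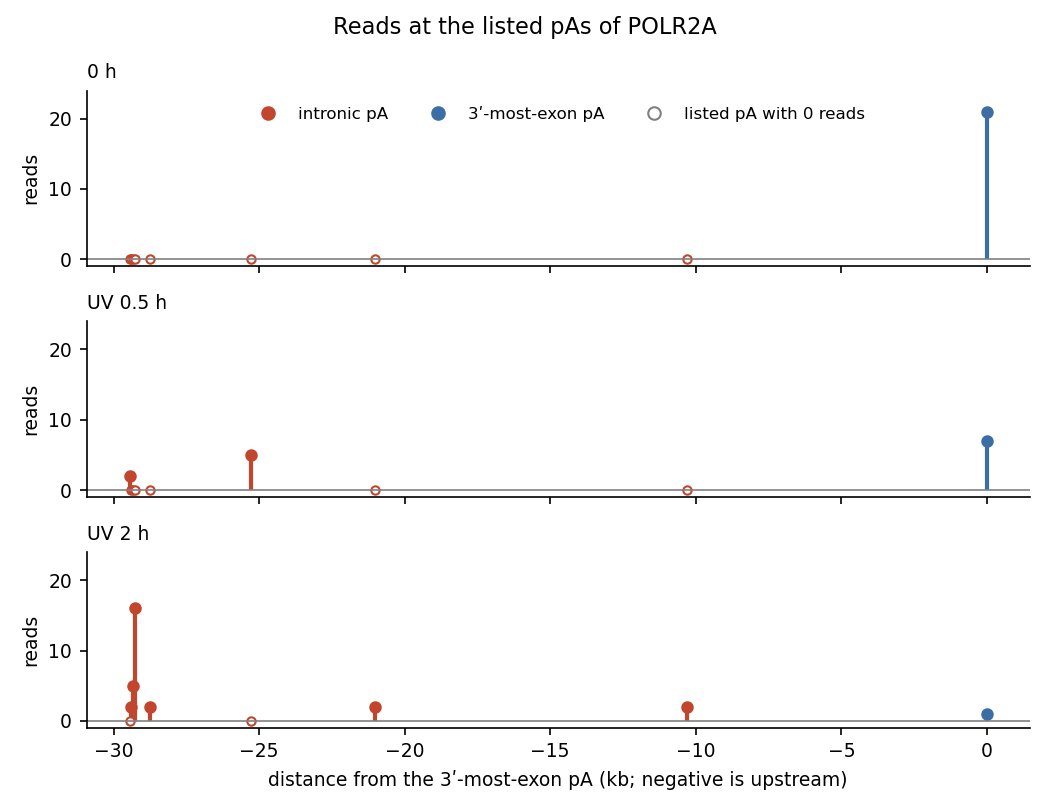
Reads at each POLR2A pA in the libraries at 0, 0.5 and 2 h, against the distance in kilobases upstream of the pA in the 3ʹ-most exon (at 0). Reads stand only at distance 0 at 0 h, at 3 places at 0.5 h and mainly at the 5ʹ end of the gene at 2 h, where 1 read is left at distance 0.

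The bases just before the annotated POLR2A start are shown because the clustered intronic pAs are the most upstream of the listed pAs of the gene. They come from the RefSeq promoter table (GRCh38.p14, chr17:7484116-7484365, plus strand, 250 bases), and the capitals mark matches to the GC box GGGCGG. The build differs from that of the pAs, so no distance between them is given.

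POLR2A upstream: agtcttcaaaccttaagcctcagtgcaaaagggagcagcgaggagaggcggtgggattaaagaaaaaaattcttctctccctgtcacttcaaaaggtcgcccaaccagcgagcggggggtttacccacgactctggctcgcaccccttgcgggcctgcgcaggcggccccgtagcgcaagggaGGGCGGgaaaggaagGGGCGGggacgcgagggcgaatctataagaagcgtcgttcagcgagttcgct

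The GC box was searched on both strands (GGGCGG or CCGCCC) in windows of 250 bases before to 50 bases after each start, and it was in 45.0% of 35116 windows. Of the 10 subunit genes 7 had a window, and 5 of the 7 held a GC box (POLR2A, POLR2B, POLR2D, POLR2E and POLR2H). The 7 genes had 9 windows between them. This count is of genes and the share above is of windows, so they cannot be compared directly. The TATA box TATAAA (or TTTATA) was in 11.5% of all windows and in none of the 9 windows of the subunit genes. A match is a description of the sequence, and 3ʹREADS does not show where transcripts start.

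Intronic isoforms of POLR2A stood at 0, 13.9 and 66.2 RPM at 0, 0.5 and 2 h, with intervals of 0 to 8.51, 5.61 to 28.7 and 44.3 to 95.1 RPM. With 0 reads at 0 h a fold cannot be given, and the exact interval of the ratio to 0 h began at 7.29 at 2 h and at 1.24 at 0.5 h. The 3ʹ-most-exon isoform stood at 48.5, 13.9 and 2.28 RPM at the same times. The intronic share of POLR2A reads was 0% at 0 h (0 of 21, 0 to 16.1%), 50% at 0.5 h (7 of 14, 23.0 to 77.0%) and 96.7% at 2 h (29 of 30, 82.8 to 99.9%). The intervals of the shares at 0 and 2 h did not overlap with each other or with that at 0.5 h.

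**Figure D2:**
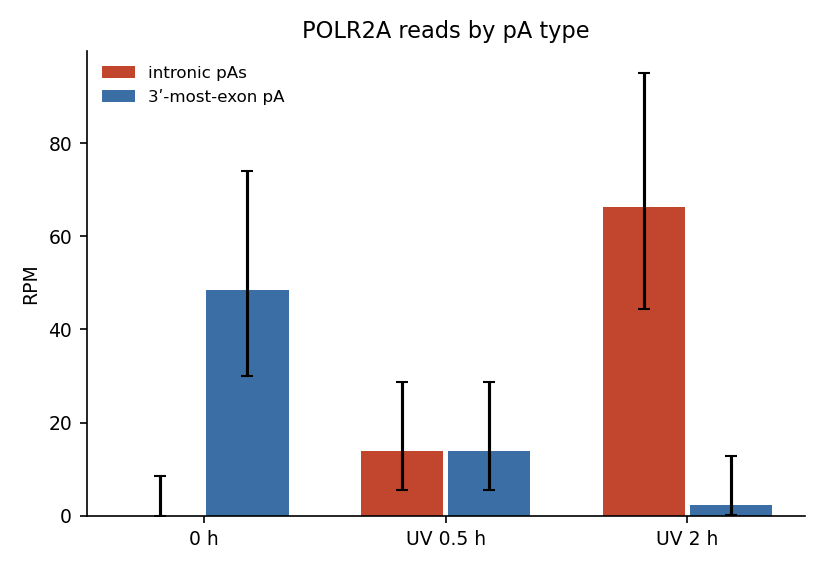
POLR2A reads in introns and in the 3ʹ-most exon, in RPM with 95% Poisson intervals, in 1 library each at 0, 0.5 and 2 h. The intronic level was 66.2 RPM at 2 h and 0 RPM at 0 h, and the 3ʹ-most-exon level was 2.28 RPM at 2 h and 48.5 RPM at 0 h.

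Intronic polyadenylation (intron-APA) was tested per gene with a two-sided Fisher's exact test of all intronic against all 3ʹ-most-exon reads between 2 libraries, called at p under 0.05 and a change of the intronic share above 5 percentage points. For POLR2A the intronic share was 50 percentage points higher at 0.5 h than at 0 h (exact p = 5.10e-04) and 46.7 percentage points higher at 2 h than at 0.5 h (exact p = 5.98e-04). Between 2 h and 0 h it was 96.7 percentage points higher (exact p = 1.92e-13). POLR2A was thus called in all 3 windows, where 6.2% of all genes tested were called with intronic isoforms up from 0 to 0.5 h, 15.7% from 0.5 to 2 h and 15.7% from 0 to 2 h. With Benjamini-Hochberg adjustment of Fisher's exact p over all genes tested, the values were 0.0642, 0.0152 and 1.86e-10, so the first window was not called by that rule. It called 0.383%, 5.68% and 5.64% of all genes in the 3 windows. Without the most abundant intronic pA of each gene, POLR2A had 13 intronic reads and 1 in the 3ʹ-most exon at 2 h, and the adjusted p from Fisher's exact test was 0.276 from 0.5 to 2 h and 3.62e-06 from 0 to 2 h. These tests compare single libraries and not conditions, and the windows share libraries, so their calls are not independent of one another.

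POLR2A stood at the far end of the better covered genes in this measure. Among 1021 genes tested from 0 to 2 h that had 20 or more reads in introns and the 3ʹ-most exon together at 0 h and again at 2 h, POLR2A had the largest rise of the intronic share. Its intronic share at 2 h was not the highest, since 25 of the 1021 genes, POLR2A included, had a share at least as high. Genes with fewer reads were not ranked. Among them TAF2, MNAT1 and POLR3G, with 10, 8 and 4 intronic reads at 2 h, each rose by 100 percentage points from 0 to 2 h. Over all genes the intronic share of reads was 6.86%, 6.004% and 8.46% at 0, 0.5 and 2 h.

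Single intronic pAs were also tested, each against the 3ʹ-most-exon reads of its gene by the same rule. From 0 to 0.5 h the pA at 7392652 was called (exact p = 0.00334, 4.37% of all intronic pAs called up). From 0.5 to 2 h the pAs at 7388616 and 7388676 were called (exact p = 0.00466 and 2.31e-05, 9.14% of all called up). From 0 to 2 h all 6 pAs with reads at 2 h were called (9.5% of all called up), with exact p = 7.64e-10 for 7388676, 7.43e-05 for 7388616 and 0.0109 for each of the 4 pAs with 2 reads. These 6 tests share the same 3ʹ-most-exon reads and are not independent of the test of the whole gene. After adjustment over all intronic pAs, a rule chosen after seeing the data, Fisher's exact test called the pA at 7388676 from 0.5 to 2 h (adjusted p = 0.00408) and those at 7388676 and 7388616 from 0 to 2 h (adjusted p = 6.86e-07 and 0.00751).

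The total of POLR2A moved less than its isoforms. Over all pAs it had 21, 14 and 30 reads at 0, 0.5 and 2 h, or 48.5, 27.9 and 68.5 RPM, with intervals of 30.004 to 74.1, 15.3 to 46.8 and 46.2 to 97.8 RPM. Expression was called where the adjusted p of Fisher's exact test, a gene's reads set against all others in the library, was under 0.05 and the log2 ratio of RPM (0.1 RPM added) was beyond 1 or -1. By this rule POLR2A was higher at 2 h than at 0.5 h, by 1.29 on the log2 scale (ratio 2.45, 1.26 to 5.01, Fisher's exact test, adjusted p = 0.0405). It was the only call among 8, 8 and 9 subunit genes tested in the 3 windows, where 6.51%, 10.2% and 12.4% of all genes were called in either direction. The log2 ratio was -0.79 at 0.5 h over 0 h and 0.50 at 2 h over 0 h (adjusted p of Fisher's exact test 0.393 and 0.533).

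Counted over the 3ʹ-most exon alone, POLR2A had the opposite direction at 2 h. The isoform that holds the last exon was lower at 0.5 h than at 0 h (ratio 0.288, 0.103 to 0.703, Fisher's exact test, adjusted p = 0.0367) and lower at 2 h than at 0 h (ratio 0.0471, 0.00114 to 0.293, Fisher's exact test, adjusted p = 8.79e-05). Both were called, in windows where 4.71% and 9.69% of all genes had fewer 3ʹ-most-exon reads by this rule. Between 2 h and 0.5 h, with 1 against 7 reads, the ratio was 0.164 (0.00363 to 1.27, Fisher's exact test, adjusted p = 0.246), where 6.32% of all genes were called lower. The higher total at 2 h was therefore made up of intronic isoforms.

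The levels of the other subunit genes fell into a wide range. 3ʹREADS gives 1 read per 3ʹ end, so RPM over all pAs can be compared between genes without a length. POLR2J was highest at each time, at 794, 847 and 1125 RPM at 0, 0.5 and 2 h, and POLR2H was next, at 376, 532 and 532 RPM. Their intervals overlapped neither with each other nor with those of the genes below. POLR2G (157, 163 and 158 RPM) and POLR2F (162, 108 and 116 RPM) overlapped with each other at all times. POLR2A and POLR2C (30.005, 15.9 and 34.2 RPM) followed and overlapped with each other at all times. The interval of POLR2A lay below those of POLR2G and POLR2F at 0 and 0.5 h, and overlapped with that of POLR2F at 2 h.

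**Figure D3:**
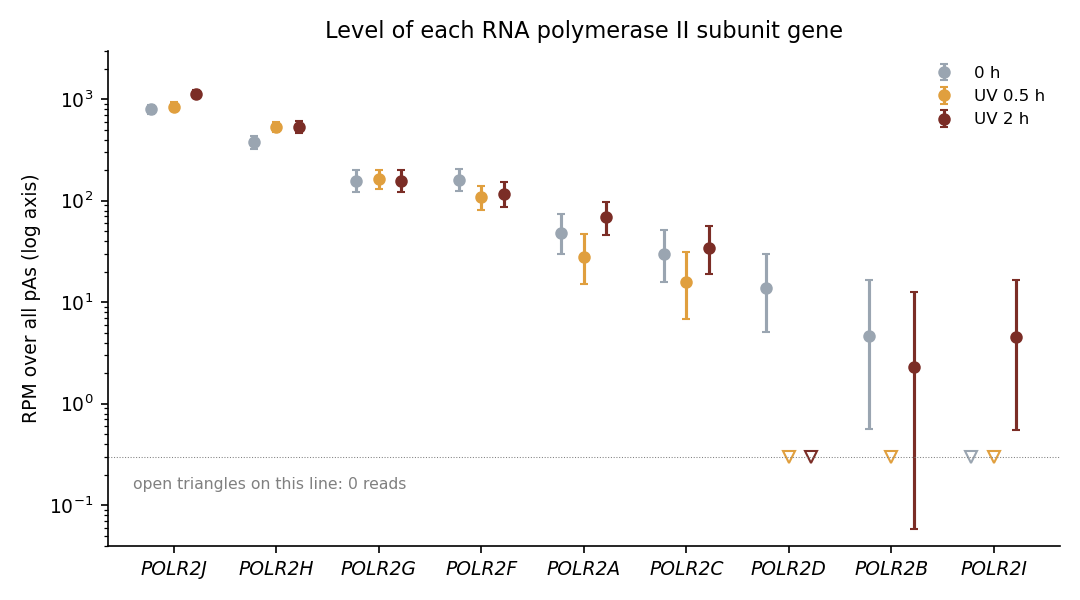
Level of each listed subunit gene over all pAs, in RPM on a log axis with 95% Poisson intervals, in 1 library each at 0, 0.5 and 2 h. Open triangles on the dotted line mark genes with 0 reads, and the height of that line is neither a level nor a limit. POLR2J and POLR2H stand above the rest at all times.

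POLR2B, the partner of RPB1 in the active site, was near the limit of detection. It had 2 reads at 0 h, none at 0.5 h and 1 at 2 h, spread over pAs at 57865932, 57897189 and 57897324 on chromosome 4 (plus strand), the first of which lies in an upstream exon. An intronic share cannot be given for it, and a change of its level was not detectable at this depth.

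The genes of the assembly heterodimer had unequal read numbers, although the split of reads between POLR2J and its near-identical copies is uncertain. POLR2J (chromosome 7, minus strand) had 342, 421 and 489 reads at its main pA at 102113904, 2, 4 and 1 at 102113566, and 0, 0 and 3 at 102111678. The total was higher at 2 h than at 0 h, at 493 against 344 reads (ratio 1.42, 1.23 to 1.63, Fisher's exact test, adjusted p = 1.38e-05), and higher at 2 h than at 0.5 h (ratio 1.33, 1.16 to 1.52, adjusted p = 3.75e-04 by the same exact test). At 0.5 h over 0 h the ratio was 1.07 (0.923 to 1.23). POLR2C (chromosome 16, plus strand) had 12, 8 and 15 reads at 57505605 and 1, 0 and 0 at 57505904. Its ratio of 1.14 at 2 h over 0 h had an interval of 0.507 to 2.61, too wide to show a change of the size seen for POLR2J.

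Of the subunits shared with RNA polymerases I and III, POLR2H passed the adjusted test but was below the minimum fold of a call, and POLR2F did not pass it. POLR2H (chromosome 3, plus strand) had 13, 20 and 17 reads at 184086331 and 150, 247 and 216 at 184086379 at 0, 0.5 and 2 h. Its ratio was 1.41 at 0.5 h over 0 h (1.16 to 1.73, Fisher's exact test, adjusted p = 0.00804) and 1.41 at 2 h over 0 h (1.15 to 1.74, adjusted p = 0.00743 by the same exact test). Between 2 h and 0.5 h it was 1.00 (0.835 to 1.20). With all libraries thinned to the smallest, the adjusted p of the same exact test was 0.0613 at 0.5 h over 0 h, no longer under 0.05, and 0.00881 at 2 h over 0 h. POLR2F (chromosome 22, plus strand) had 65, 48 and 47 reads at 38363808 and 5, 6 and 4 at 38365319. Its ratio was 0.666 at 0.5 h over 0 h (0.458 to 0.964, Fisher's exact test, p = 0.0245, adjusted p = 0.151) and 0.721 at 2 h over 0 h (0.492 to 1.05).

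The stalk genes differed in depth. POLR2G (chromosome 11, plus strand) had 67, 82 and 69 reads in its 3ʹ-most exon, at 62534182, at 0, 0.5 and 2 h. Its ratio was 1.04 (0.746 to 1.46) at 0.5 h over 0 h and 1.00 (0.707 to 1.42) at 2 h over 0 h. At 0 h it also had 1 read at an intronic pA at 62529573, or 1.47% of its 68 reads. POLR2D (chromosome 2, minus strand) had 4, 1 and 1 reads at 0 h at 128604233, 128603898 and 128603840, and none at 0.5 or 2 h. The exact interval of its ratio to 0 h ended at 0.733 at 0.5 h and at 0.840 at 2 h (Fisher's exact test, adjusted p = 0.0782 and 0.0794), and it did not pass the adjusted test. POLR2I (chromosome 19, minus strand) had 2 reads at 2 h, at 36605271 in an upstream exon, and none at the other times.

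By the adjusted p alone, with no minimum fold, 1 subunit gene was higher from 0 to 0.5 h (POLR2H, 3.9% of all genes higher), 2 from 0.5 to 2 h (POLR2A and POLR2J, 7.61%) and 2 from 0 to 2 h (POLR2H and POLR2J, 6.73%). None was lower among the 8, 8 and 9 subunit genes tested. Over all 8804, 8905 and 9044 genes tested, 920, 1316 and 1500 passed in either direction, of which 343, 678 and 609 were higher. So few subunit genes cannot show a direction of their own. Scaled to the library total, the median log2 ratio of genes with at least 50 reads in both libraries was -0.11 at 0.5 h over 0 h and -0.07 at 2 h over 0 h. Relative to that median POLR2H was 0.61 higher at 0.5 h and 0.57 higher at 2 h on the log2 scale, and POLR2J was 0.57 higher at 2 h.

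**Figure D4:**
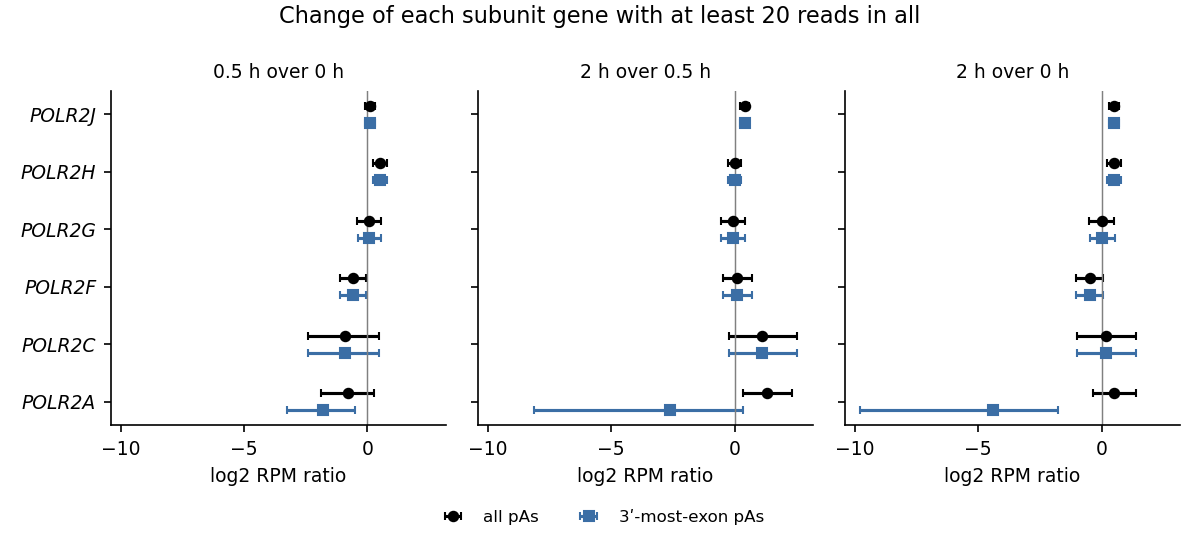
Log2 ratio of RPM, later over earlier library, with exact 95% intervals, for subunit genes with at least 20 reads in all, in 3 windows (0 to 0.5 h, 0.5 to 2 h and 0 to 2 h), over all pAs and over 3ʹ-most-exon pAs alone. For POLR2A the 2 counts stand apart at 2 h over 0 h, at 0.50 over all pAs and -4.35 in the 3ʹ-most exon, and for the other genes shown they lie together.

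Introns of the other 8 listed subunits were almost free of reads. Together they had 1, 0 and 0 intronic reads at 0, 0.5 and 2 h beside 664, 836 and 862 reads in their 3ʹ-most exons. For the pooled reads, most of them of POLR2J and POLR2H, a count of 0 allows an intronic share of up to about 0.359% at 0.5 h and 0.348% at 2 h. This limit is 3 reads over the pooled reads and not a Clopper-Pearson interval. For POLR2C alone the Clopper-Pearson interval reached 36.9% and 21.8%, and POLR2B, POLR2D and POLR2I had too few reads for a limit. Besides POLR2A, POLR2G was the only one with an intronic pA in the table, and its share was 0% at 0.5 h (0 of 82, 0 to 4.40%) and 0% at 2 h (0 of 69, 0 to 5.21%).

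No subunit gene had a call for the choice of pA within the 3ʹ-most exon. In 3ʹUTR-APA, the 2 most abundant pAs of the 3ʹ-most exon are compared between libraries, by the same exact test and rule. Of 4, 3 and 5 subunit genes tested in the windows from 0 to 0.5 h, 0.5 to 2 h and 0 to 2 h, none was called, and none had an unadjusted p under 0.05, where 12.1%, 15.5% and 12.6% of all genes were called. POLR2B had 1 read at 0 h and 1 at 2 h, and POLR2C had only 1 read at its distal pA, so neither could be called. The proximal pA of POLR2H, 48 bases upstream of the distal pA, had 7.98%, 7.49% and 7.30% of the reads at 0, 0.5 and 2 h. That of POLR2F, 1511 bases upstream, had 92.9%, 88.9% and 92.2%, and that of POLR2J, 338 bases upstream, had 99.4%, 99.1% and 99.8%. The lowest exact p in any window was 0.189.

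POLR2J has near-identical copies, POLR2J2 and POLR2J3, on chromosome 7. How reads that map to several copies were counted is not given in the sources used here, so the split between them is uncertain. POLR2J3 (pA at 102178366) had 153, 332 and 559 reads at 0, 0.5 and 2 h, or 353, 662 and 1276 RPM. POLR2J2 (pA at 102277472) had 30, 48 and 36 reads. POLR2J3 was higher at 2 h than at 0 h by 1.85 on the log2 scale (Fisher's exact test, adjusted p = 5.66e-52). Of the reads of the 3 genes POLR2J had 65.3%, 52.8% and 45.3% at 0, 0.5 and 2 h, and POLR2J3 had 29.0%, 41.2% and 51.4%. Summed, a choice made after seeing the data, the 3 genes had 527, 805 and 1088 reads, with a log2 ratio of 1.03 at 2 h over 0 h (Fisher's exact test, adjusted p = 1.39e-41), which is past the fold that POLR2J alone did not reach. Of the remaining small subunits, POLR2L had 27, 32 and 17 reads and POLR2K 1, 0 and 1. The POLR2K read at 0 h was in its 3ʹ-most exon and that at 2 h at an intronic pA, too few reads for a call.

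**Figure D5:**
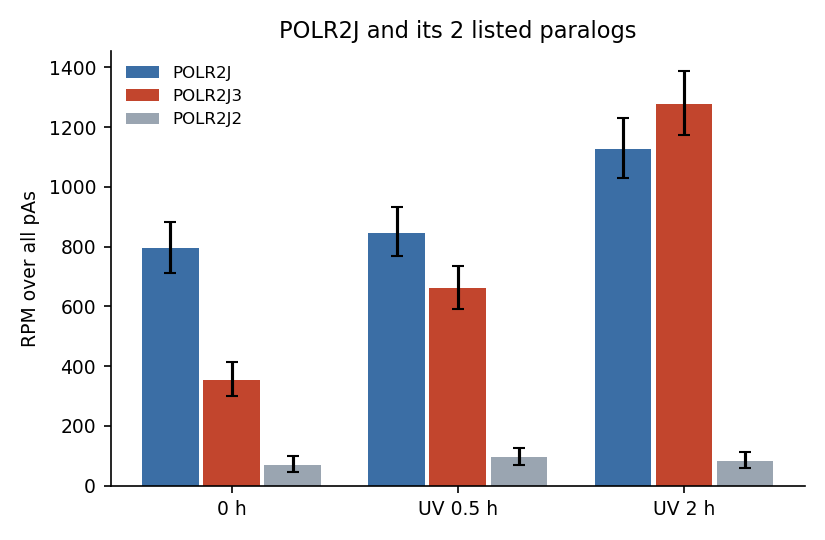
Reads of POLR2J, POLR2J3 and POLR2J2 in RPM with 95% Poisson intervals, in 1 library each at 0, 0.5 and 2 h. POLR2J3 stood at 1276 RPM at 2 h and 353 RPM at 0 h, and POLR2J2 stayed below 100 RPM.

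Genes that work with Pol II were counted by lists from general knowledge, by the intron-APA rule. From 0.5 to 2 h the intronic share was higher in 3 of 11 general transcription factor genes tested (TAF15, TAF2 and GTF2H1), 3 of 11 Pol II assembly and CTD phosphatase genes (SSU72, CTDSP2 and RPRD1A), 1 of 10 Mediator genes (MED13), 1 of 4 Pol I subunits (POLR1A) and 1 of 2 Pol III subunits (POLR3D). It was lower in none, and 15.7% of all genes tested were called higher in this window. The median change of these lists was 28.6, 14.3, 0.411, 30.1 and 44.3 percentage points, beside 9.09 over all genes tested. From 0 to 2 h it was higher in 3 of 12 general transcription factor genes (TAF2, MNAT1 and GTF2H3), 4 of 11 assembly and phosphatase genes (RPRD1A, SSU72, URI1 and CTDSP2), 0 of 12 Mediator genes, 1 of 4 Pol I subunits (POLR1A) and 1 of 5 Pol III subunits (POLR3G). The medians were 25.7, 14.3, 1.33, 44.8 and 50 percentage points, beside 11.5 over all genes, of which 15.7% were called higher. From 0 to 0.5 h MNAT1 (1 of 10 general transcription factor genes) and MED8 (1 of 11 Mediator genes) were higher, none of 8 assembly and phosphatase genes or 2 Pol I subunits was called, and POLR3C, the 1 Pol III subunit tested, was lower, as it was from 0 to 2 h. Of all genes tested from 0 to 0.5 h, 6.2% were called higher. The share of all genes called lower was not counted in any window, so the lower calls of POLR3C and the absence of others cannot be judged against it.

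In these lists the smallest p from 0.5 to 2 h belonged to TAF15, SSU72 and TAF2. TAF15, which encodes a TBP-associated factor, had 9 intronic reads and 0 in the 3ʹ-most exon at 2 h, against 0 and 13 at 0.5 h (Fisher's exact test, adjusted p = 2.37e-04). At 0 h it had 1 and 1, and the same exact test made no call from 0 to 2 h (adjusted p = 0.541). TAF2, a subunit of TFIID, had 10 and 0 reads at 2 h, against 0 and 5 at 0.5 h (Fisher's exact test, adjusted p = 0.0103) and 0 and 5 at 0 h (adjusted p = 0.00985 by the same exact test). SSU72, a CTD phosphatase, had an intronic share of 13.0% (10 of 77 reads) at 2 h and 0% (0 of 136) at 0.5 h (Fisher's exact test, adjusted p = 0.00155). At 0 h it was 1.41% (1 of 71), and from 0 to 2 h SSU72 was called by the unadjusted p (0.00960, Fisher's exact test) and not by the adjusted p (0.102).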

How the data were processed

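One nuclear 3ʹREADS library was sequenced at each of 3 times in RKO cells (the baseline, called 0 h, and 0.5 and 2 h after UV). The authors mapped reads to hg19 with Bowtie2 after CASAVA base calling, required 2 or more non-genomic As at the 3ʹ end of a read, and deposited RPM values per pA. The pA filter and the handling of reads from near-identical copies are not given in the sources used here and could change the count of a pA. RPM values were divided by the value of 1 read in each library; all came out whole, within 4.00e-11 of a read. The deposited table lists 433093, 501600 and 437491 of the 433261, 501838 and 438040 reads. Shares, intron-APA, 3ʹUTR-APA and expression were tested with two-sided Fisher's exact tests (scipy 1.17.1, Python 3.11.15) and Benjamini-Hochberg adjustment over all genes or pAs tested in a window. Alternatives changed the p rule, the change required, the read minimum, depth (thinning), the pAs counted, the scaling and the added value. The subunit genes, the lists and the markers were chosen with earlier results of these data known. All 10 members were named; of each other list, up to 4 called intron-APA genes with the smallest p in each window; and the 5 genes nearest to POLR2A in intronic share. Promoters came from RefSeq (GRCh38.p14). With 1 library a time, p-values measure counting differences between single libraries.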

Additional observations from a re-analysis of the deposited data

How the results depend on the processing

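Direction and call of POLR2A in intron-APA were kept in 23 of 24 alternatives, but 4 of the 24 changed the reads of POLR2A itself and the rest changed the rule or other genes; from 0 to 0.5 h the adjusted p of Fisher's exact test was 0.0642 for a change of 50 percentage points. Its adjusted p ranged from 0.0341 to 0.157, from 0.00871 to 0.276 and from 8.31e-11 to 3.62e-06 in the windows from 0 to 0.5 h, 0.5 to 2 h and 0 to 2 h. In the same order, genes with intronic isoforms up were 162, 535 and 556, against 10, 194 and 200 by adjusted p, 91, 305 and 302 with at least 10 reads, and 46, 211 and 205 without the most abundant intronic pA. Single intronic pAs up were 197, 629 and 682, against 5, 98 and 128 by adjusted p, an alternative added after seeing the data. Genes called in 3ʹUTR-APA were 410, 477 and 408, against 71, 83 and 111 by adjusted p, and 292 and 267 in the later windows with at least 10 reads. In expression 573 genes were called from 0 to 0.5 h, against 920 by the adjusted p alone. Over 3ʹ-most-exon pAs alone the log2 ratio of POLR2A was -1.79, -2.56 and -4.35, so its direction was reversed from 0.5 to 2 h and from 0 to 2 h. The absence of a call in 3ʹUTR-APA (POLR2B, POLR2C, POLR2F, POLR2H and POLR2J) was the same in 58 of 58 alternatives, and in expression (the 8 subunits other than POLR2A) in 121 of 126. In 3ʹUTR-APA the adjusted p, the larger change required and the read minimum could not add a call, so the 58 do not measure stability. In expression the 5 that differed gained a call for POLR2H or POLR2J, by the adjusted p alone or with the POLR2J copies summed. Many of the 126 left a gene's reads unchanged or concerned genes with too few reads for a call. They do not measure stability either. No paired analysis was possible because each time point has 1 library. With under 16 reads, POLR2B, POLR2C, POLR2D and POLR2I could show only large changes.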

Other observations

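Of 1037 genes that have both kinds of pA in the table and at least 20 reads in each library, the 5 whose intronic shares at 0, 0.5 and 2 h lay nearest to those of POLR2A (Euclidean distance over the 3 libraries) were ELP6, CNOT1, TFPI, EFNB2 and ATP2C1. ELP6, a subunit of the Elongator complex, had intronic shares of 19.05%, 38.5% and 78.8%, at a distance of 28.6 percentage points. CNOT1, the scaffold of the CCR4-NOT deadenylase, had 27.3%, 54.5% and 86.2% (29.6 percentage points), and TFPI, an inhibitor of coagulation, had 22.4%, 44.3% and 77.8% (29.9 percentage points). EFNB2, the ligand ephrin-B2, had 7.69%, 19.4% and 97.9% (31.6 percentage points), and ATP2C1, a calcium pump of the Golgi, had 20%, 41.4% and 70% (34.4 percentage points). All 5 had intronic reads at 0 h, where POLR2A had none. The 1037 include 75 genes that could not be tested from 0 to 2 h, having no intronic or no 3ʹ-most-exon read in either library. POLR2A itself had 14 reads at 0.5 h, under the minimum asked of the others. The likeness is a description over 3 libraries.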
